A study of Mus musculus with 6 samples.

Results

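The livers of wild-type mice killed 6 h after a toxic dose of acetaminophen were compared with those of wild-type mice given saline, gene by gene, leaving aside the immediate early and neutrophil genes. The comparison uses 4 of the 6 RNA sequencing libraries of the study, each from the liver of a different mouse of the C57BL/6 strain, 6 weeks old. The 2 control mice (replicates 3 and 6, called saline 3 and saline 6) were injected into the peritoneum with 200 µL of phosphate-buffered saline. The 2 treated mice (replicates 1 and 4, called acetaminophen 1 and acetaminophen 4) received acetaminophen at 500 mg per kg by the same route. The other 2 libraries, from mice lacking Optn that also received the drug, served to estimate the spread between animals. They also entered the scaling of the counts and a rule on genes far higher in 1 library than in all others. The labels do not give the sex or caging of the mice or say what the replicate numbers stand for, so p-values measure the spread between these animals only. Of 55385 genes in the table, 11622 had a mean level of at least 0.5 FPKM (fragments counted on a gene, divided by its length and by the size of the library) over the 4 libraries and were tested. At that limit, Pnldc1 entered with a mean of 0.50001 FPKM and Haus1 stayed out with 0.499689.

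Acetaminophen (paracetamol) is safe at low dose because hepatocytes couple most of it to glucuronic acid or sulfate. At high dose more of it is oxidised, mainly by the cytochrome P450 enzyme CYP2E1, to a reactive quinone imine that depletes glutathione, binds proteins and damages mitochondria. Hepatocytes around the central vein, where CYP2E1 is concentrated, die, and the surviving cells respond with stress, wound and repair programmes. Uncharged transfer RNAs, misfolded proteins and a shortage of haem each activate a kinase that slows translation and raises the transcription factor ATF4, whose targets include amino acid transporters and serine synthesis enzymes.

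The tissue label was liver in each sample, and hepatocyte markers made up 117600 to 136700 CPM (counts scaled to the size of the library). The protocols mention RNA of an adipose type, but Lep and Retn were at a count of 0 in all 4 libraries, Adipoq reached at most 8 counts and Plin1 at most 4. The other 2 members of that 6-gene list, Cidec and Fabp4, which other liver cells can also express, both passed as rises, with 169 and 98 against 503 and 505 counts for Cidec and 239 and 466 against 895 and 827 for Fabp4 (saline livers first). Their edgeR adjusted p was 0.0237 for Cidec (0.0774 without acetaminophen 1 and 0.0572 without acetaminophen 4) and 0.0231 for Fabp4 (0.099 without saline 3 and 0.0853 without acetaminophen 1). Total counts ran from 59143418 in saline 3 to 75856408 in saline 6. Traces of other tissues differed between the livers. The sum of 12 skeletal muscle markers was 97.8 CPM in saline 3, 65.4 in acetaminophen 1 and 76.8 in acetaminophen 4, and 0.527 in saline 6, where 10 of the 12 were at 0. The sum of 10 neuron markers was 150.4 CPM in acetaminophen 4 and 15.1 to 17.1 in the other livers, and 8 pituitary and hypothalamus markers gave 22.3 CPM there against at most 0.288. In acetaminophen 4, 89 of the tested genes were over 10 times higher than in each other library, against 1 or 2 in the others, and 0 of these 89 passed the test. The sum of 12 intestinal markers came to 54.9 and 75.8 CPM in the saline livers and 31.0 and 30.8 CPM in the treated livers. Of these 12, 7 were at 0 in saline 3, 1 in saline 6, 8 in acetaminophen 1 and 6 in acetaminophen 4. Results below are therefore given, for called genes and many lists, with and without each library.

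At an edgeR adjusted p under 0.05, 943 genes rose (8.11% of those tested) and 675 fell (5.81%), together 13.9%. Of the risers, 280 changed at least 4-fold and 144 at least 8-fold. Of the fallers, 80 changed at least 4-fold and 20 at least 8-fold. The FPKM ranges of the 2 groups did not overlap for any of the called genes, which by itself is a weak criterion, since the same held for 66.2% of all tested genes. The genes that rose made up 5.41% and 6.38% of summed FPKM in the saline livers and 16.07% and 15.06% in the treated livers, and the share of those that fell went from 3.59% and 3.48% to 1.31% and 1.56%. These shares describe genes chosen by the same libraries.

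**Figure D1:**
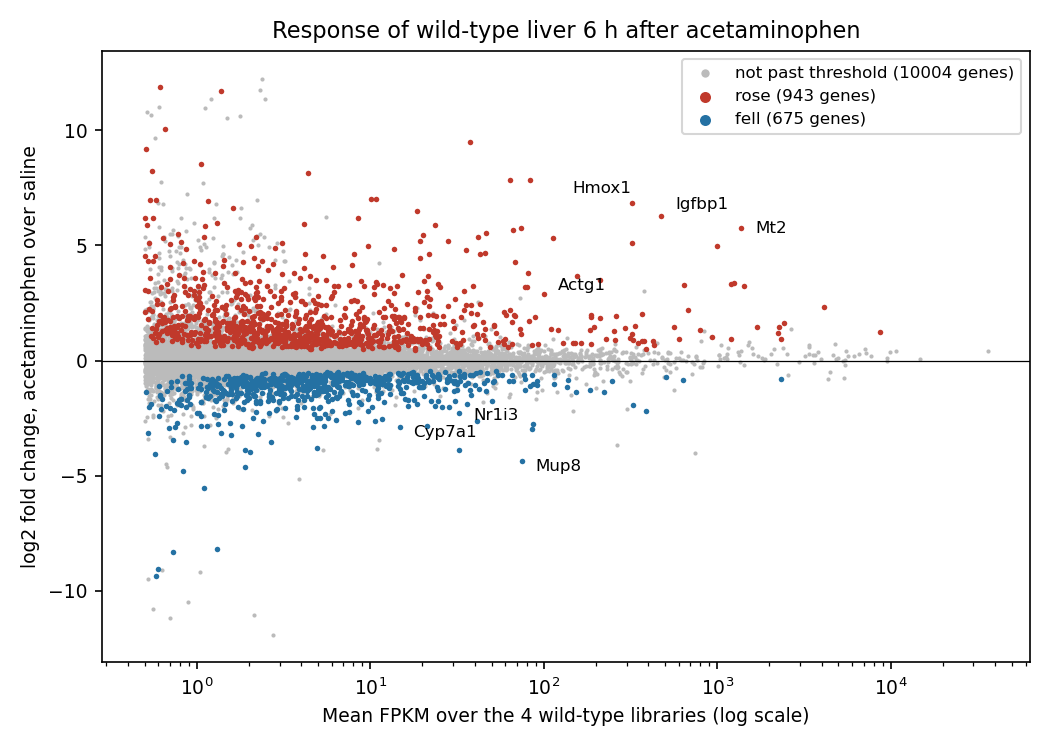
Log2 fold change of each of the 11622 tested genes (acetaminophen over saline, y axis) against its mean FPKM over the 4 wild-type libraries (x axis, log scale). Red points are the 943 genes that rose, blue points the 675 that fell and grey points the rest, which include genes with fold changes as large as those called.

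The split between rises and falls depended on scaling. Fold changes here use TMM scaling (the trimmed mean of M values), with factors of 1.1 and 1.12 for the saline and 0.921 and 0.964 for the treated libraries, which centres all tested genes at a median log2 fold change of 0.03. FPKM values are scaled to total counts, and with that scaling in edgeR the median moved by -0.23, and 676 genes rose and 1511 fell, so rises made up 30.9% of calls in place of 58.3%. A log2 fold change printed below is therefore about 0.23 above the ratio of the FPKM values beside it. A median of a list is read against 0.03, and where a described list's median changes sign, both medians are given.

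Calls also changed when a liver was left out. Each such fit keeps 1 library in that wild-type group, so calls can be lost because fewer libraries measure the spread. Leaving out saline 3, saline 6, acetaminophen 1 or acetaminophen 4 left 326, 496, 595 and 628 rises and 105, 185, 198 and 333 falls. Of the 943 rises, 251 passed in each of these 4 fits, and of the 675 falls, 77 did. Counts for a gene list under these 4 fits, where given below, come in that order. A list printed without them may also lose calls. Where paired values are joined by against, those of saline 3 and saline 6 come before those of acetaminophen 1 and acetaminophen 4. A called gene named below passed in all 4 unless its adjusted p without a library is printed beside it. The count of a list is read against the 8.11% and 5.81% of all tested genes that rose and fell. Because members and lists were chosen with earlier results of these data known, this reading is a description and not a test. Because the limit of 0.5 FPKM is a mean over both groups, some genes passed it through 1 group alone: 169 of the 943 rises had a saline mean below it and 67 of the 675 falls a treated mean below it. List counts include such genes.

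**Figure D2:**
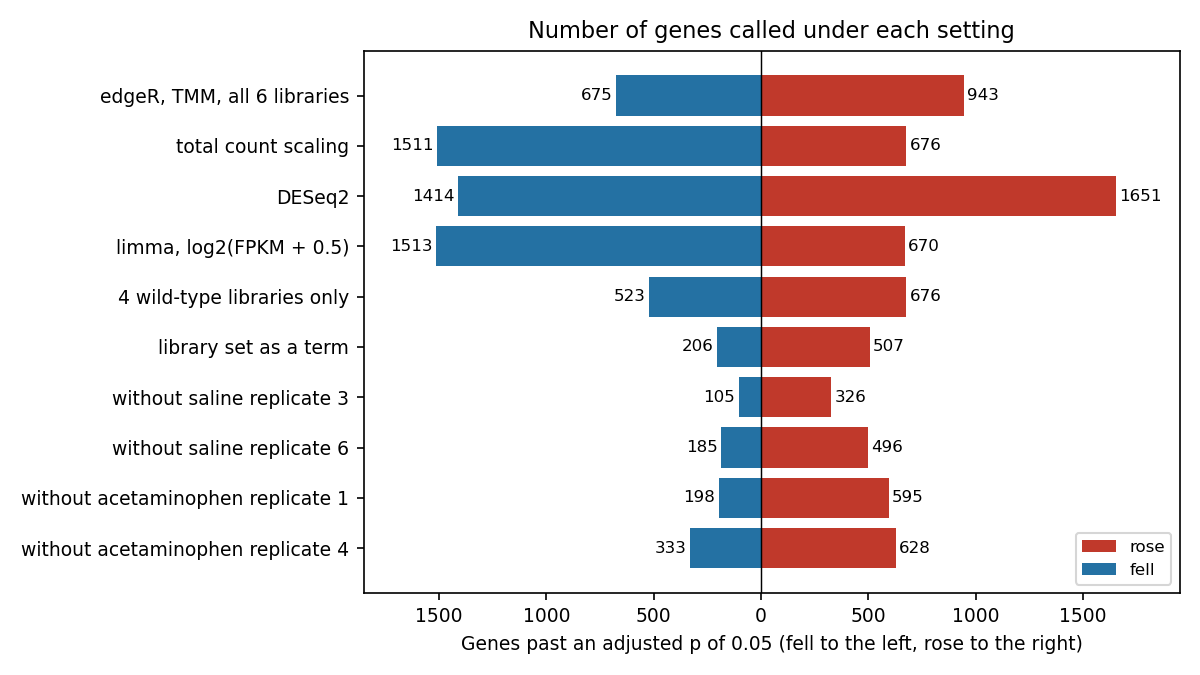
Number of genes past an edgeR adjusted p of 0.05 (or that of DESeq2 or limma where named) that rose (red, right) and fell (blue, left) under each setting. Rises outnumber falls with TMM scaling, falls outnumber rises with total count or FPKM scaling, and leaving out any wild-type library lowers both counts.

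Beyond the immediate early genes (24 of 25 rose) and neutrophil genes (10 of 13 rose), the largest rises among genes with a mean of at least 5 FPKM included several stress and growth arrest genes. Igfbp1, a secreted binding protein of insulin-like growth factors made by hepatocytes (ENSMUSG00000020429, chromosome 11, 7197782 to 7202546, plus strand, GRCm38), stood at 12.1 and 16.2 FPKM in the saline livers and 1032 and 843 in the treated livers. Its log2 fold change was 6.28 ± 0.27 (SE, edgeR adjusted p = 0.000838), so that a modest transcript of control liver became an abundant one. Ifrd1, a transcriptional co-regulator induced by stress, went from 1.96 and 2.01 to 38.99 and 44.4 FPKM (log2 fold change 4.61 ± 0.17, edgeR adjusted p = 0.00082). Gadd45a, a DNA damage and stress sensor, was at 1.21 and 1.15 FPKM in controls and 47.97 and 26.6 after the drug. Tiparp, an ADP-ribosyltransferase induced through the aryl hydrocarbon receptor, was at 0.693 and 0.7802 against 19.6 and 11.4 FPKM. For both, acetaminophen 1 was the higher of the treated livers and the groups were far apart (log2 fold changes 5.18 ± 0.37 and 4.61 ± 0.33, edgeR adjusted p = 0.00237 and 0.00244).

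The metallothioneins Mt1 and Mt2, small proteins that bind zinc and copper, differed between the control livers. Mt2 stood at 10.2 and 108 FPKM in the saline livers and 2755 and 2647 in the treated livers, and Mt1 at 22.3 and 120.5 against 1949 and 1881 FPKM. Saline 6 was several times above saline 3 in both genes, and the treated livers were nearly alike. Mt1 rose by 4.98 ± 0.80 on the log2 scale (edgeR adjusted p = 0.0163). Mt2 rose by 5.75 ± 1.10 (edgeR adjusted p = 0.0257), and its adjusted p was 0.0673 without acetaminophen 1 and 0.0573 without acetaminophen 4. Chac1, an enzyme that degrades glutathione, showed the same spread, with 0.616 and 5.19 FPKM in the saline and 63.7 and 73.6 in the treated livers (log2 fold change 4.78 ± 0.94, edgeR adjusted p = 0.0275, and 0.069 without acetaminophen 1 and 0.065 without acetaminophen 4).

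Inhibitors that feed back on mitogen-activated protein (MAP) kinase and cytokine signals were compared next. Of 30 tested members of that list, 20 rose and 1 fell, with a median log2 fold change of 1.35, and the leave-out fits gave 10, 10, 10 and 15 rises. Of these rises, 5 had a saline mean under 0.5 FPKM. Among the phosphatases that switch off MAP kinases, Dusp5 went from 0.116 and 0.174 to 3.04 and 4.93 FPKM, Dusp4 from 0.148 and 0.1499 to 3.29 and 2.16 and Dusp8 from 0.309 and 0.126 to 5.900 and 4.97. Each was barely detected in both saline livers and present in both treated livers (log2 fold changes 4.96 ± 0.32, 4.38 ± 0.30 and 4.87 ± 0.44, edgeR adjusted p = 0.00185, 0.002 and 0.00389). Pim3, a survival kinase induced by cytokines, was already expressed in controls, at 23.8 and 32.1 FPKM, and stood at 91.8 and 93.6 in treated livers (log2 fold change 1.95 ± 0.17, edgeR adjusted p = 0.0034).

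Cytokine receptors are the route by which hepatocytes and their neighbours sense inflammation. Of 28 receptor, kinase and STAT genes, 13 rose and 1 fell (median log2 fold change 0.58), with 3, 7, 6 and 10 rises in the leave-out fits and 9 under total count scaling, and 8 had a log2 fold change below 0. Monocyte markers, whose cells carry such receptors, summed to 1723 and 1910 CPM in the saline and 2002 and 2174 CPM in the treated livers. Most of this sum came from Fn1 and F10, which hepatocytes also make. Of the 8 monocyte markers, 4 were tested and 2 rose (median log2 fold change 2.37). Of these 2 rises, 1 passed the limit of 0.5 FPKM only through the treated group. T and NK cell markers summed to 2.20 and 2.58 against 7.08 and 3.997 CPM. The part of these cells in the rises of receptor genes was not tested. Il1r1, the signalling receptor of interleukin 1, stood at 3.87 and 6.46 FPKM in saline and 38.9 and 48.5 in treated livers, a log2 change of 3.30 ± 0.30 (edgeR adjusted p = 0.00397). Il17ra, a chain of the interleukin 17 receptor, went from 1.83 and 1.78 to 12.2 and 8.06 FPKM. Tnfrsf12a, the receptor of the growth and death factor TWEAK, went from 2.44 and 1.83 to 21.2 and 17.8 FPKM. The last 2 changed by 2.72 ± 0.24 and 3.41 ± 0.25 on the log2 scale (edgeR adjusted p = 0.00347 and 0.00244). Tnfrsf1a, the main receptor of tumour necrosis factor, went from 24.9 and 31.7 to 47.9 and 59.5 FPKM (log2 fold change 1.14 ± 0.16, edgeR adjusted p = 0.0122, and 0.07 without saline 3).

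Of 19 toll-like receptor and inflammasome genes, 6 rose and 1 fell (median log2 fold change 0.82, with 1, 4, 4 and 6 rises in the leave-out fits). Of the 6 rises, 2 had a saline mean under 0.5 FPKM, and the 1 fall had a treated mean under it. The co-receptor Cd14, also counted as a monocyte marker, went from 0.721 and 1.402 to 51.4 and 27.3 FPKM (log2 fold change 5.43 ± 0.51, edgeR adjusted p = 0.00425). Casp4, the caspase that senses cytosolic lipopolysaccharide, was at 0.0923 and 0.184 FPKM in controls and 1.505 and 0.915 after acetaminophen (log2 fold change 3.33 ± 0.47, edgeR adjusted p = 0.0116, and 0.0578 without saline 3). Of 36 interferon-stimulated genes tested, 2 rose and 5 fell, with a median of -0.06, and the leave-out fits gave 0, 0, 0 and 4 rises and 1, 1, 2 and 2 falls. Igtp, an immunity-related GTPase, was at 37.8 and 33.1 FPKM in the saline livers and 9.84 and 8.33 in the treated livers, and fell by 3.33-fold (log2 fold change -1.74 ± 0.19, edgeR adjusted p = 0.00593). Of 19 antigen presentation genes, 2 rose and 0 fell (0, 0, 0 and 3 rises in the leave-out fits).

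Genes of the transforming growth factor beta family, which restrains hepatocyte growth, moved in both directions. Of 35 tested, 9 rose and 4 fell (median log2 fold change 0.31, with 6, 7, 7 and 8 rises and 1, 2, 1 and 1 falls in the leave-out fits). Of the 9 rises, 2 had a saline mean under 0.5 FPKM, and of the 4 falls, 1 had a treated mean under it. Inhbe, a hepatocyte activin subunit, stood at 12.05 and 10.1 FPKM in controls and 1.701 and 1.43 after the drug, with a log2 change of -2.60 ± 0.29 (edgeR adjusted p = 0.00656). Fst, follistatin, which binds and blocks activins, went the other way, from 0.238 and 0.191 to 0.956 and 1.13 FPKM (log2 fold change 2.46 ± 0.24, edgeR adjusted p = 0.00451). Id1 and Id3, inhibitors of DNA binding and direct targets of bone morphogenetic protein signals, stood at 2.27 and 1.796 against 8.72 and 6.33 FPKM for the former and 13.2 and 9.502 against 40.99 and 32.5 for the latter. Both rose, by 2.11 ± 0.26 and 1.92 ± 0.22 on the log2 scale (edgeR adjusted p = 0.00837 and 0.0074). Hamp, the iron hormone hepcidin and another target of these signals, differed more within the controls than between groups, with 1417 and 652 FPKM in saline and 1422 and 1128 in treated livers (log2 fold change 0.53 ± 0.38, edgeR adjusted p = 0.393).

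Several ligands of the epidermal growth factor receptor, which drive hepatocytes into the cell cycle during repair, lay below the limit of 0.5 FPKM and so outside the main test. Areg, amphiregulin, had 0 counts in both saline livers and 85 and 44 in the treated livers. Hbegf had 0 and 23 counts in saline 3 and saline 6 and 143 and 160 after acetaminophen, and Ereg 4 and 12 against 89 and 61. The receptor itself, Egfr, was at 48.4 and 40.7 against 50.3 and 61.9 FPKM (log2 fold change 0.55 ± 0.17, edgeR adjusted p = 0.0822). Of the 7 tested ligands and receptors of the epidermal and hepatocyte growth factors, edgeR called 0, with 3 at an unadjusted p under 0.05, and DESeq2 called 1 rise and 1 fall. The log2 fold change was above 0 for 3 of the 7 and below 0 for 4 (median -0.15). In an edgeR fit without the limit, 18 were tested, and the 3 that rose were Areg, Ereg and Btc (adjusted p = 0.00784, 0.0303 and 0.0257), while Hbegf did not pass (0.0811). The receptors Met and Erbb3 and the ligand Tgfa were lower in that fit without passing. Their log2 fold changes were -0.83, -0.65 and -0.72 (edgeR adjusted p = 0.111, 0.138 and 0.226).

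Amino acid transporters supply cells with the building blocks of protein and glutathione. Of 16 transporters tested, 7 rose and 0 fell, with a median log2 fold change of 0.79, and the leave-out fits gave 5, 8, 7 and 7 rises. A log2 fold change below 0 was found for 4 of them. Slc7a1, a transporter of arginine and lysine that resting hepatocytes hardly express (chromosome 5, 148327410 to 148399904, minus strand), stood at 0.0293 and 0.0409 FPKM in the saline livers and 1.21 and 1.29 in the treated livers (log2 fold change 5.34 ± 0.25, edgeR adjusted p = 0.00098). Slc7a6, another basic amino acid carrier, went from 0.0637 and 0.0447 to 0.783 and 1.41 FPKM (log2 fold change 4.55 ± 0.43, edgeR adjusted p = 0.00433). Both were near 0 in each control and present at low level in each treated liver, so they passed the limit of 0.5 FPKM only through the treated group, and the other 5 rises did not depend on it. Slc38a2, the transporter of small neutral amino acids, was expressed in all livers, at 10.9 and 13.4 against 44.3 and 35.98 FPKM (log2 fold change 1.95 ± 0.18, edgeR adjusted p = 0.00413). Slc3a2, the heavy chain shared by several of these carriers, went from 9.74 and 9.53 to 19.6 and 23.3 FPKM (log2 fold change 1.37 ± 0.13, edgeR adjusted p = 0.00425).

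Serine synthesis feeds the one-carbon units used to make nucleotides and methionine. Of 21 genes of serine, folate and methionine metabolism, 7 rose and 1 fell (median log2 fold change 0.33, with 2, 3, 3 and 6 rises in the leave-out fits), and 8 lay below 0. Psat1, the aminotransferase of serine synthesis (chromosome 19, 15904678 to 15947337, minus strand), was at 0.219 and 0.297 FPKM in controls and 4.23 and 4.75 in treated livers, and Mthfd2, the mitochondrial folate dehydrogenase, at 0.2195 and 0.426 against 5.54 and 4.81. These log2 fold changes of 4.31 ± 0.20 and 4.17 ± 0.33 (edgeR adjusted p = 0.00098 and 0.00285) were the largest of the list. Both genes passed the limit of 0.5 FPKM only through the treated group, and the other rises of the list did not depend on it. Psph, which completes serine synthesis, rose by 1.64 ± 0.20 on the log2 scale (edgeR adjusted p = 0.00888, and 0.0546 without saline 3). Of 20 aminoacyl-tRNA synthetases, 5 rose, with 1, 2, 1 and 1 in the leave-out fits, and their median went from 0.14 to -0.09 under total count scaling. Gars, which charges glycine transfer RNA (ENSMUSG00000029777, chromosome 6, 55038007 to 55079500, plus strand), went from 11.2 and 10.9 to 21.7 and 21.4 FPKM, with replicates almost alike in each group (log2 fold change 1.19 ± 0.12, edgeR adjusted p = 0.00451). Aars, which charges alanine transfer RNA, stood at 28.4 and 26.1 against 20.8 and 28.4 FPKM (log2 fold change 0.07 ± 0.17, edgeR adjusted p = 0.818).

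The promoter of Gars holds the letters TGATGNAA, a composite element that ATF4 dimers can bind. It is shown because the gene rose and its promoter holds a match, and it was chosen once the matches were known. The window spans the annotated start in RefSeq (GRCm38.p6, chr6:55037751-55038050, plus strand), and capitals mark the match, which lies on the opposite strand.
Gars: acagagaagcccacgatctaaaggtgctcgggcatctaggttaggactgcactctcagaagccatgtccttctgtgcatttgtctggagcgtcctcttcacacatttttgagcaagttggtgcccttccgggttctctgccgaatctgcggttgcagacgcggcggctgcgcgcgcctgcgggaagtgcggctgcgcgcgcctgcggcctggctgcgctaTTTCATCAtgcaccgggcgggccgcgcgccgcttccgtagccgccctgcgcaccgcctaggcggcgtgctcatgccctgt
Searched on both strands, the same letters occur in 2.2% of the 8274 promoters of tested genes that RefSeq matched, in 4.3% of those of genes that rose and in 1.6% of those of genes that fell. The window of Chac1 also holds a match, and none was found in those of Psat1, Mthfd2, Slc3a2 or Slc7a1.

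Lists of the translation machinery itself differed in their share of called genes. It was 1.3% for cytosolic ribosomal proteins, 12.2% for initiation and elongation factors and 18% for factors that build ribosomes. Of all tested genes, 13.9% were called. Of 79 cytosolic ribosomal proteins, 1 rose and 0 fell, with a median of 0.19 that became -0.05 under total count scaling. Of 41 translation initiation and elongation factors, 4 rose and 1 fell, and the median went from 0.17 to -0.06 under total count scaling. Of 50 factors that build ribosomes in the nucleolus, 9 rose and 0 fell (median 0.37), but the leave-out fits gave only 2, 0, 2 and 2 rises. Ddx21, a nucleolar helicase, was at 6.56 and 6.41 against 10.97 and 10.5 FPKM (log2 fold change 0.95 ± 0.13, edgeR adjusted p = 0.0107, and 0.063 without saline 3 and 0.0567 without saline 6). Among mitochondrial ribosomal proteins, 6 of 78 fell, a share near that of all genes, and 1 rose, with a median of -0.15, with 0, 0, 0 and 0 falls in the leave-out fits and 16 under total count scaling. The mitochondrial genome's own mt-Atp6, a subunit of the ATP synthase, had the second largest gain in FPKM among the called genes, from 1589 and 1533 to 7508 and 5900.4 (log2 fold change 2.33 ± 0.22, edgeR adjusted p = 0.00417). Its coding region overlaps that of mt-Atp8, and how fragments over the overlap were assigned is not given in the sources used here.

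Regulators of splicing rose in 11 of 36 cases and fell in 0, with 3, 2, 4 and 4 rises in the leave-out fits and a median of 0.21 that turned to -0.03 under total count scaling. The leading members were the cold-inducible RNA-binding proteins, which mild cooling raises in mammalian cells. Cirbp stood at 2.45 and 2.62 FPKM in saline and 15.4 and 10.6 in treated livers, and Rbm3 at 5.36 and 5.58 against 11.7 and 11.4. Their log2 fold changes were 2.58 ± 0.22 and 1.30 ± 0.12 (edgeR adjusted p = 0.0034 and 0.00438). Of 10 polyamine genes, 3 rose and 1 fell, with Slc3a2 counted among them as well as among the transporters. Sat1, which acetylates spermidine and spermine for breakdown or export, went from 10.99 and 9.79 to 49.5 and 41.98 FPKM (log2 fold change 2.36 ± 0.16, edgeR adjusted p = 0.00195). Srm, which makes spermidine, was at 24.5 and 33.7 FPKM in saline and 10.8 and 11.6 in treated livers (log2 fold change -1.16 ± 0.17, edgeR adjusted p = 0.0145, and 0.0614 without acetaminophen 1 and 0.0524 without acetaminophen 4).

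Genes of the actin cytoskeleton, which shapes cells and anchors their contacts, included more rises than falls. Of 37 actin cytoskeleton genes, 15 rose and 3 fell (median log2 fold change 0.53), with 4, 9, 10 and 12 rises and 0, 0, 1 and 1 falls in the leave-out fits. Actg1, cytoplasmic gamma actin (ENSMUSG00000062825, chromosome 11, 120345690 to 120348542, minus strand), was at 25.9 and 29.5 FPKM in the saline livers and 163 and 183 in the treated livers, and Actb, beta actin, at 74.6 and 62.6 against 143 and 160.4. Gamma actin thus moved from below beta actin to above it in both treated livers (log2 fold changes 2.87 ± 0.19 and 1.37 ± 0.15, edgeR adjusted p = 0.00185 and 0.0058). Reads shared by these similar genes could have been divided between them by the counting. Zyx, zyxin of focal adhesions, went from 6.09 and 6.05 to 15.8 and 13.95 FPKM (log2 fold change 1.52 ± 0.15, edgeR adjusted p = 0.0044).

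Among 12 tubulins, 2 rose and 1 fell. Tubb6, a beta tubulin scarce in resting liver, went from 2.64 and 2.400 to 23.8 and 18.2 FPKM and Tubb2a from 15.1 and 10.8 to 59.3 and 58.2 (log2 fold changes 3.28 ± 0.20 and 2.40 ± 0.21, edgeR adjusted p = 0.00171 and 0.0034). Tuba1c, an alpha tubulin, stood at 40.1 and 38.5 against 38.95 and 39.4 FPKM (log2 fold change 0.22 ± 0.11, edgeR adjusted p = 0.241). Keratins 8 and 18, the pair that forms the intermediate filaments of hepatocytes, rose in step. Krt8 was at 94.8 and 86.8 FPKM in saline and 276 and 295 in treated livers, and Krt18 at 115 and 118 against 279 and 266 (log2 fold changes 1.88 ± 0.14 and 1.45 ± 0.12, edgeR adjusted p = 0.00244 and 0.0034). They belong to a list of 25 junction and polarity genes of which 4 rose and 6 fell, with 3, 3, 3 and 4 rises and 0, 1, 1 and 1 falls in the leave-out fits and a median that went from 0.01 to -0.23 under total count scaling. In it Cldn14, a tight junction claudin, went from 2.47 and 2.58 to 32.9 and 23.4 FPKM (log2 fold change 3.70 ± 0.22, edgeR adjusted p = 0.00161). Another claudin, Cldn3, went from 56.8 and 55.1 to 20.4 and 18.7 (log2 fold change -1.29 ± 0.18, edgeR adjusted p = 0.0116, and 0.0618 without saline 3).

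The Actg1 promoter (RefSeq, GRCm38.p6, chr11:120348446-120348745, minus strand) is shown because it holds a CArG box, the motif bound by serum response factor, which actin genes are known to carry. Capitals mark the match.
Actg1: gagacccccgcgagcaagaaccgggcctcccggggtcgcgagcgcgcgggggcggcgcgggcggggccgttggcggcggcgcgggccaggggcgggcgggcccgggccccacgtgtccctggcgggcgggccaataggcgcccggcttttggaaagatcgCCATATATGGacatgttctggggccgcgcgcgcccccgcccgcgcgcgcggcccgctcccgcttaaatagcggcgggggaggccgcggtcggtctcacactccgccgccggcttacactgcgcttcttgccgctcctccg
Searched on both strands, a CArG box occurs in 1.2% of the 8274 promoters, in 2.4% of those of genes that rose and in 2.0% of those of genes that fell, and it was not found in the windows of Zyx or Krt8. A match describes the letters and is not evidence of binding.

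**Figure D3:**
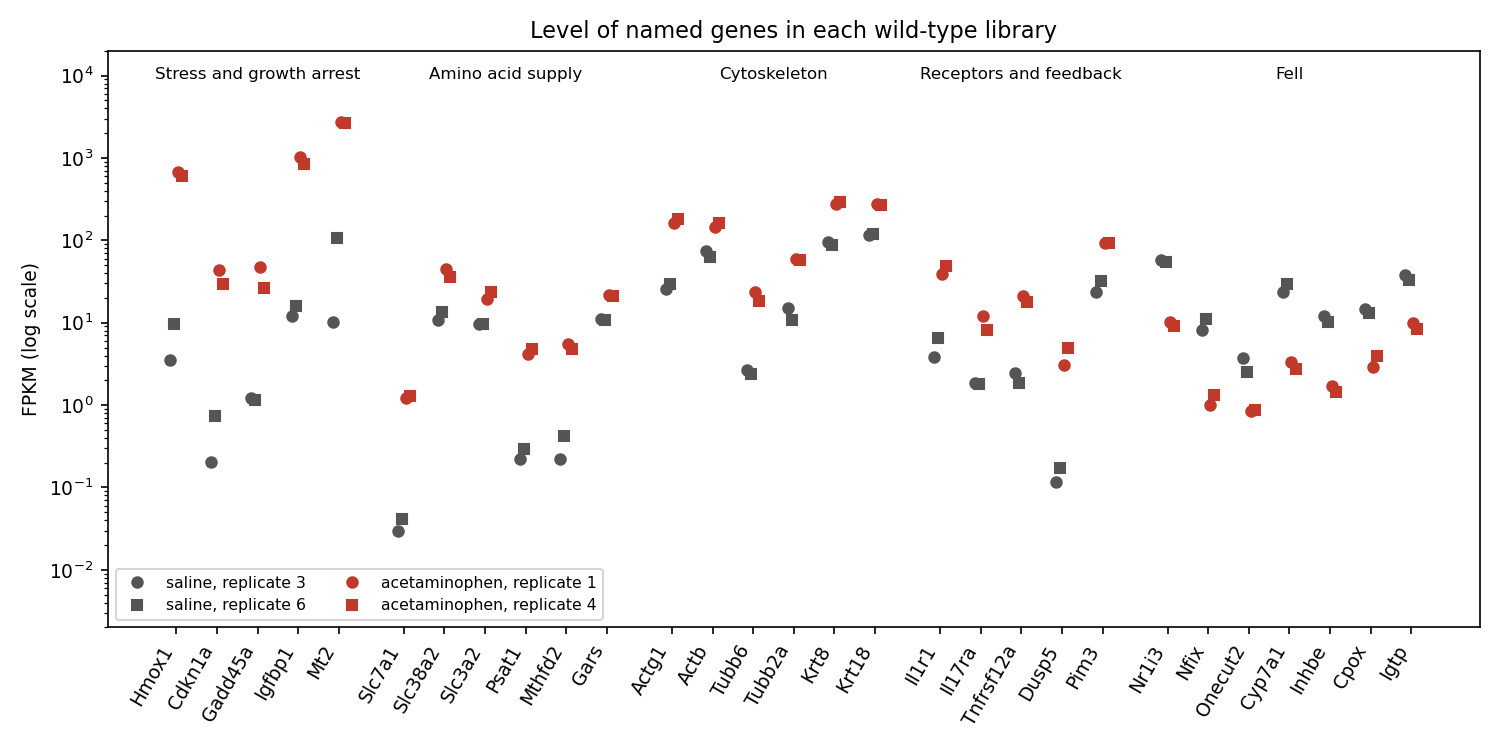
FPKM (y axis, log scale) of named genes in each wild-type library. Grey symbols are the saline livers (replicate 3 circles, replicate 6 squares) and red symbols the acetaminophen livers (replicate 1 circles, replicate 4 squares). The groups do not overlap for any gene shown, as for every called gene, although the saline livers lie far apart for Mt2.

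Wound and matrix genes rose in 10 of 25 cases and fell in 1 (median log2 fold change 1.14), with 5, 7, 9 and 10 rises in the leave-out fits. Of the 10 rises, 5 had a saline mean under 0.5 FPKM, that of Thbs1 among them, and so passed the limit only through the treated group. Thbs1, thrombospondin 1, went from 0.0955 and 0.156 to 1.29 and 1.63 FPKM, and the protease Adamts1 from 0.582 and 0.757 to 4.73 and 4.45 (log2 fold changes 3.73 ± 0.37 and 2.998 ± 0.17, edgeR adjusted p = 0.0048 and 0.00152). Ccn2, connective tissue growth factor, stood at 0.998 and 1.94 against 6.68 and 9.03 FPKM (log2 fold change 2.63 ± 0.33, edgeR adjusted p = 0.00906).

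Among plasma proteins, which the liver secretes in bulk, the fibrinogen chains rose. Of 30 coagulation genes, 6 rose and 0 fell, with 3, 5, 5 and 6 in the leave-out fits, while the list's median went from 0.12 to -0.12 under total count scaling. Of the 6 rises, 2 had a saline mean under 0.5 FPKM. Fgg stood at 1196 and 1479 FPKM in saline and 3415 and 3623 in treated livers, and Fgb at 844 and 1194 against 2192 and 2523 (log2 fold changes 1.62 ± 0.15 and 1.43 ± 0.20, edgeR adjusted p = 0.00425 and 0.0108). Thbd, thrombomodulin of endothelium, went from 0.351 and 0.641 to 2.67 and 2.66 FPKM (log2 fold change 2.64 ± 0.30, edgeR adjusted p = 0.00672). Prothrombin, F2, was at 346 and 383 against 371 and 384 FPKM (log2 fold change 0.27 ± 0.14, edgeR adjusted p = 0.237), and complement C3 at 1272 and 1321 against 1486 and 1434 (0.40 ± 0.27, edgeR adjusted p = 0.362). Of 33 complement genes 1 rose and 0 fell, with a median of 0.13 that became -0.10 under total count scaling. Serpins rose in 6 of 19 cases and fell in 1, with 3, 5, 4 and 4 rises in the leave-out fits. The neighbouring Serpina3 genes led, with Serpina3m going from 185 and 210.1 to 408 and 546 FPKM (log2 fold change 1.49 ± 0.17, edgeR adjusted p = 0.00679), though these near-identical copies may share reads. Albumin, Alb, was at 32475 and 34772 against 39152 and 38396 FPKM (log2 fold change 0.43 ± 0.20, edgeR adjusted p = 0.202).

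Of 35 transcription factors and nuclear receptors that keep hepatocyte identity, 8 fell and 2 rose, 28 had a log2 fold change below 0 and the median was -0.59. The leave-out fits gave 3, 5, 3 and 6 falls, and total count scaling 17. Nr1i3, the constitutive androstane receptor that controls drug metabolism (ENSMUSG00000005677, chromosome 1, 171213970 to 171219001, plus strand), was at 56.99 and 54.4 FPKM in saline and 10.1 and 9.22 in treated livers, 4.92-fold lower with little spread in either group (log2 fold change -2.30 ± 0.13, edgeR adjusted p = 0.00152). Onecut2 went from 3.71 and 2.56 to 0.847 and 0.872 FPKM (log2 fold change -1.64 ± 0.20, edgeR adjusted p = 0.009). Foxa3, a pioneer factor of liver genes, went from 30.6 and 32.1 to 13.9 and 14.9 (log2 fold change -0.90 ± 0.12, edgeR adjusted p = 0.0107, and 0.0566 without saline 3 and 0.052 without saline 6). Nfix, outside this list and among the largest falls of all, went from 8.12 and 11.2 to 0.997 and 1.34 FPKM (log2 fold change -2.82 ± 0.21, edgeR adjusted p = 0.00244). Hnf4a, the master regulator of the hepatocyte programme, was at 92.4 and 117 against 141 and 163 FPKM. It passed as a rise (log2 fold change 0.76 ± 0.17, edgeR adjusted p = 0.0369) but lost this call when any library was left out (edgeR adjusted p = 0.166 without saline 3, 0.0709 without saline 6, 0.0927 without acetaminophen 1 and 0.123 without acetaminophen 4) and under total count scaling (0.0915). Cebpa was at 88.2 and 94.6 against 63.05 and 40.4 FPKM (log2 fold change -0.59 ± 0.26, edgeR adjusted p = 0.181).

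Most enzymes of the drug-metabolising lists did not pass the test. Of 51 hepatic P450 enzymes, 5 fell and 0 rose (median -0.11, with 0, 4, 1 and 4 falls in the leave-out fits), and of 50 conjugation enzymes 1 fell and 1 rose. Some P450 genes outside that list fell further. The fatty acid hydroxylase Cyp4a14 was at 79.3 and 43.1 against 3.89 and 3.13 FPKM and its relative Cyp4a10 at 163 and 147 against 18.8 and 15.4, and Cyp7a1, which starts bile acid synthesis, at 23.3 and 29.7 against 3.35 and 2.71 (log2 fold changes -3.90 ± 0.41, -2.95 ± 0.21 and -2.90 ± 0.20, edgeR adjusted p = 0.00564, 0.00226 and 0.00195). Cyp2e1, the main acetaminophen-oxidising enzyme (chromosome 7, 140763739 to 140774987, plus strand), was at 3293 and 2941 FPKM in saline and 1299 and 1789.6 in treated livers. Its log2 fold change of -0.80 ± 0.19 was close to the threshold (edgeR adjusted p = 0.0459) and did not pass in any leave-out fit (edgeR adjusted p = 0.178 without saline 3, 0.106 without saline 6, 0.192 without acetaminophen 1 and 0.062 without acetaminophen 4). In bulk tissue, loss of the cells that hold a transcript and a lower level per cell cannot be told apart. The drug-oxidising Cyp1a2 stood at 533 and 319.9 against 136 and 261 FPKM and Cyp3a11 at 604 and 564 against 421 and 502 (log2 fold changes -0.89 ± 0.36 and -0.12 ± 0.30, edgeR adjusted p = 0.152 and 0.818). Ugt1a1, which glucuronidates bilirubin and drugs, differed between the saline livers, at 329 and 109 FPKM against 51.7 and 83.6 (log2 fold change -1.48 ± 0.52, edgeR adjusted p = 0.114, and 0.0275 without saline 6). Among transporters of the hepatocyte membrane, 6 of 32 fell and 2 rose, with 0, 0, 1 and 2 falls in the leave-out fits. Aqp8, the water channel of the bile canaliculus, went up from 15.6 and 12.5 to 66.3 and 44.7 FPKM (log2 fold change 2.21 ± 0.27, edgeR adjusted p = 0.00887). The bile acid importer Slc10a1 was at 233 and 263 against 133 and 163 FPKM (log2 fold change -0.52 ± 0.14, edgeR adjusted p = 0.0662, and 0.0242 under total count scaling).

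Other falls included that of Mup8, a major urinary protein, at 179.9 and 108 against 4.82 and 7.12 FPKM (log2 fold change -4.37 ± 0.55, edgeR adjusted p = 0.00906), though near-identical copies of this family may share reads. Keg1 was at 43.3 and 32.5 against 2.702 and 6.35 (log2 fold change -2.85 ± 0.57, edgeR adjusted p = 0.0285, and 0.105 without saline 3, 0.0698 without saline 6 and 0.0939 without acetaminophen 1). Tsku, tsukushi, a liver-secreted protein, was at 63.9 and 80.9 FPKM in saline and 7.09 and 13.04 in treated livers. Rtp3, a receptor transporter protein gene expressed in liver, was at 18.5 and 19.1 against 2.28 and 2.87, and Marveld1 at 14.6 and 15.5 against 1.91 and 2.11. Their log2 fold changes were -2.63 ± 0.31, -2.65 ± 0.19 and -2.68 ± 0.21 (edgeR adjusted p = 0.00761, 0.00222 and 0.00277), with groups well apart. Nmrk1, a kinase that salvages nicotinamide riboside into NAD, went from 10.4 and 7.41 to 1.34 and 1.32 FPKM (log2 fold change -2.51 ± 0.23, edgeR adjusted p = 0.00387). Haem handling changed at both ends. Cpox, an enzyme late in haem synthesis, went from 14.6 and 13.05 to 2.91 and 3.89 FPKM (log2 fold change -1.80 ± 0.17, edgeR adjusted p = 0.00423), while Hmox1, which degrades haem, rose 113-fold to 671 and 611 FPKM (edgeR adjusted p = 0.00298). In the list of 24 haem and NAD enzymes, 2 rose and 4 fell, with 1, 1, 1 and 1 rises and 1, 1, 1 and 2 falls in the leave-out fits.

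Central carbon genes gave mixed counts. Of 35 hypoxia and glycolysis genes, 9 rose and 3 fell, the leave-out fits gave 2, 5, 5 and 5 rises and 1, 3, 1 and 3 falls, and the median went from 0.16 to -0.08 under total count scaling. Ndrg1, a stress gene raised by low oxygen, went from 0.553 and 0.766 to 3.05 and 4.67 FPKM (log2 fold change 2.76 ± 0.27, edgeR adjusted p = 0.00451). Pklr, the liver pyruvate kinase, went from 58.8 and 64.7 to 20.7 and 24.5 (log2 fold change -1.23 ± 0.14, edgeR adjusted p = 0.00729), and Vegfa, a classical hypoxia target, was at 21.5 and 18.3 against 16.8 and 21.6 FPKM (log2 fold change 0.17 ± 0.17, edgeR adjusted p = 0.552). Of 37 urea cycle and amino acid breakdown genes, 8 rose and 2 fell, with 0, 3, 0 and 4 rises in the leave-out fits and a median that went from 0.07 to -0.17 under total count scaling. Cps1, the entry enzyme of the urea cycle, was at 357 and 422 against 393 and 433 FPKM (log2 fold change 0.31 ± 0.15, edgeR adjusted p = 0.209). Of 31 genes of the tricarboxylic acid cycle and pyruvate, 1 rose and 3 fell (0, 0, 1 and 1 falls in the leave-out fits). Lipoprotein genes rose in 1 and fell in 3 of 30 cases (0, 1, 2 and 1 falls in the leave-out fits), with a median of 0.06 that became -0.17 under total count scaling.

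Markers of non-parenchymal and blood cells were read for the composition of the samples. Red cell markers summed to 700 and 1109 CPM in the saline livers and 9382 and 3962 CPM in acetaminophen 1 and acetaminophen 4, and platelet markers to 3.70 and 3.09 against 16.7 and 10.6 CPM. Both were above the controls in each treated liver, and their part in other rises was not tested. Kupffer cell markers gave 163 and 426 CPM in saline 3 and saline 6 and 402 and 352 CPM in the treated livers, so the treated range lay within that of the controls. Sinusoidal endothelial markers gave 128 and 211 against 121 and 128 CPM, and stellate cell markers 184 and 248 against 325 and 249 CPM. Cholangiocyte markers summed to 31.9 and 41.1 CPM in saline and 95.2 and 59.3 CPM in treated livers, but the 4 tested were split, with 2 rises and 2 log2 fold changes below 0. Krt19, a keratin of bile duct cells, was at 0.898 and 2.63 against 0.358 and 0.471 FPKM (log2 fold change -1.85 ± 0.56, edgeR adjusted p = 0.0813, and 0.0486 as a fall without saline 3). Sox9, a transcription factor of bile duct cells, went from 0.376 and 0.519 to 5.34 and 2.94 FPKM (log2 fold change 3.44 ± 0.36, edgeR adjusted p = 0.00556). Its saline mean lay under 0.5 FPKM, so Sox9 passed the limit only through the treated group. In the edgeR fit without the limit, 6 cholangiocyte markers were tested, 1 rose and the median log2 fold change was -0.21.

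**Figure D4:**
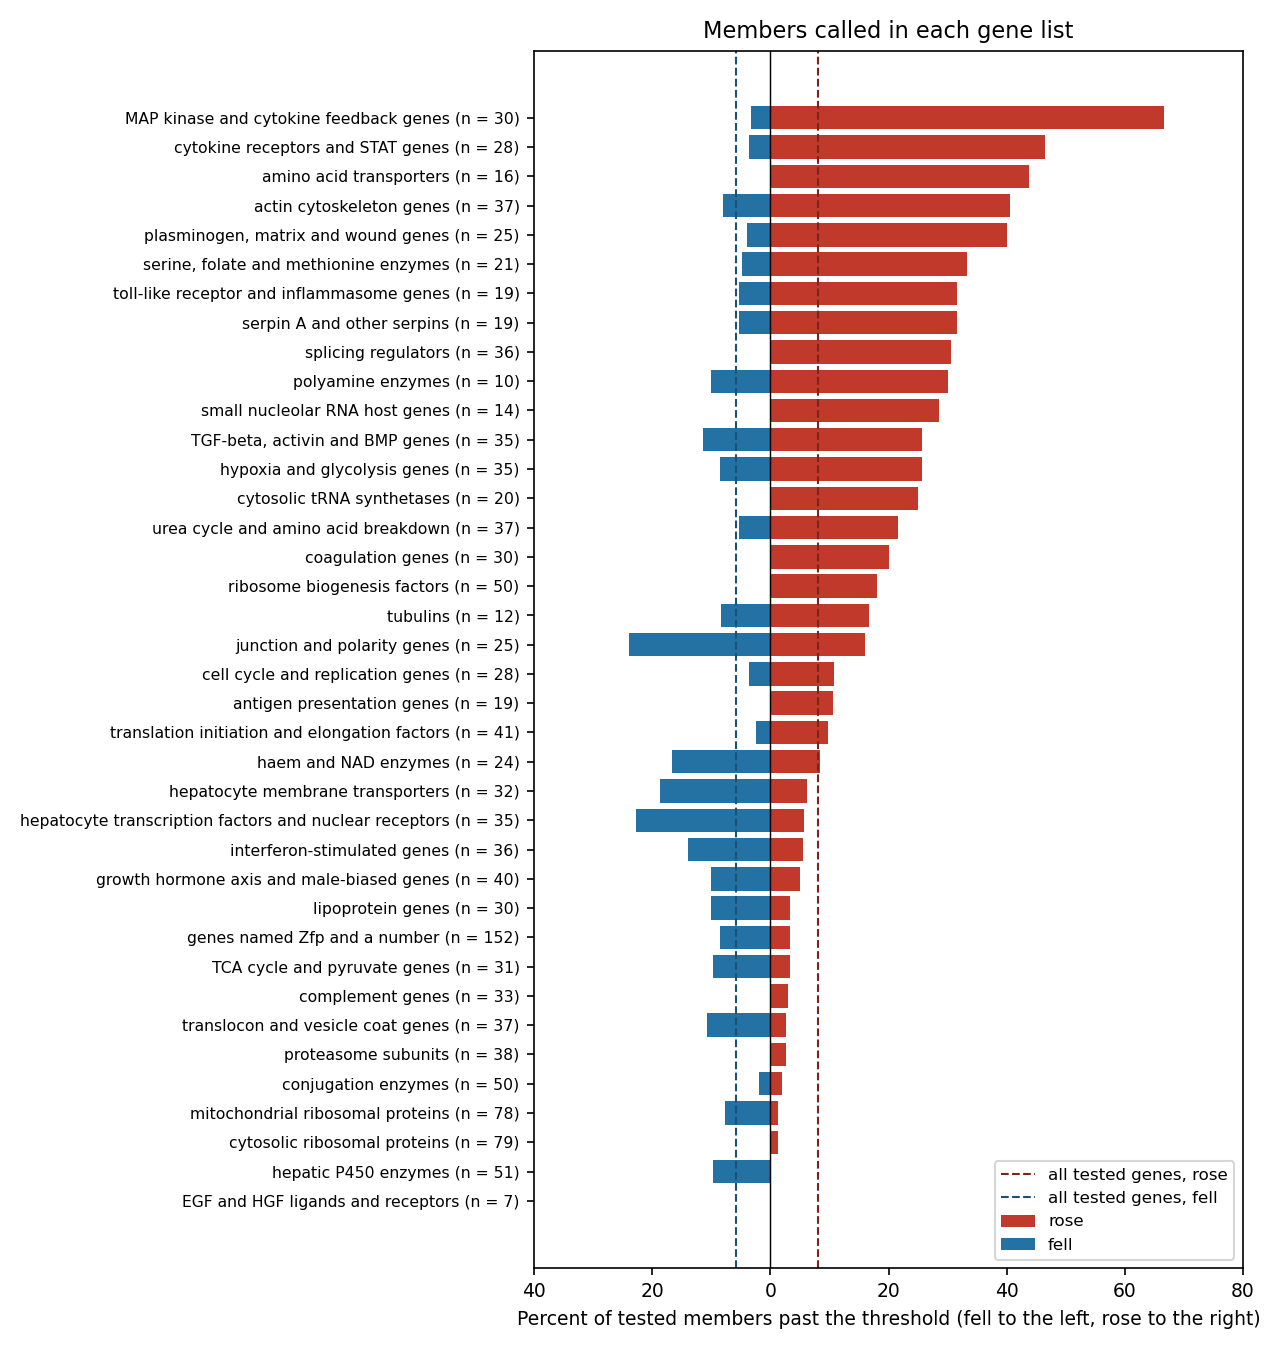
Percent of the tested members of each gene list that rose (red, right) and fell (blue, left) at an edgeR adjusted p under 0.05, with the number tested beside each name. Dashed lines mark all tested genes (8.11% rose, 5.81% fell). Feedback genes, cytokine receptors, amino acid transporters and actin genes extend far to the right of the line, and ribosomal proteins, proteasome subunits and complement genes do not. The lists were chosen with earlier results of these data known.

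Gene structure differed somewhat between called genes and all tested genes, as a description without a test. The 251 rises that passed in all 4 leave-out fits had a median genomic span of 14.6 kb and a median of 6 exons in their transcript with most exons, against 17.5 kb and 8 exons for all tested genes. At most 4 exons were present in 36.7% of them, in 32.9% of the 77 such falls and in 28.1% of all tested genes. The letters TATAAA, on either strand of the promoter window, occurred in 16.0% of the matched promoters of these rises, 5.1% of those of these falls and 7.7% of all. The full set of 943 rises had a median span of 21.5 kb and 27.9% with at most 4 exons. Immediate early and neutrophil genes are included in these counts.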

How the data were processed

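Poly(A) RNA of mouse liver was sequenced as paired ends, per the labels' protocols. The authors deposited, for every gene and library, an unscaled count and an FPKM value, per the file headers. Genes with a count of 0 carry a deposited FPKM of 0.0001. Bowtie 0.12.2 and the build mm8 are named in the submitters' processing notes. The deposited coordinates equal those of GENCODE M21 (GRCm38) for 94.2% of 55144 shared genes and are printed as GRCm38. What counted the reads, and whether strand was used, is not given in the sources used here, so overlapping antisense genes cannot be told apart.

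Counts were fitted with edgeR 4.0.16 in R 4.3.3 (quasi-likelihood test, TMM scaling, 3 group means over all 6 libraries, 3 residual and a median of 2.88 prior degrees of freedom, common biological coefficient of variation 0.282), at a Benjamini-Hochberg adjusted p of 0.05 over 11622 genes. The script was tested on simulated data. Alternatives used DESeq2 1.42.0, limma 3.58.1 on log2(FPKM + 0.5), other scalings, filters and sets of libraries. Counts of the replicate pairs differed beyond sampling noise (mean chi-square per gene 85.15 for saline and 107.2 for acetaminophen).

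Lists of pathways, families and cell types (49, holding 1749 genes) and 7 of other tissues were used. The members and lists were chosen with earlier results of these data known. Named genes were the 12 largest rises and falls with a mean of at least 5 FPKM, the 8 largest gains and losses in FPKM, up to 4 members of each list with the smallest p, and anchor genes. Genes of the excluded lists and of other tissues, predicted genes, pseudogenes, genes with only an identifier and genes over 10 times higher in 1 library were left out of the first 2 groups. The text prints a selection of these, mostly those that passed without each library in turn, and 1 anchor gene is not reported here. Promoters came from RefSeq tables (GRCm38.p6), which matched 8274 of the tested genes.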

Additional observations from a re-analysis of the deposited data

How the results depend on the processing

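No paired analysis was possible because the saline livers (replicates 3 and 6) and the treated livers (replicates 1 and 4) share no replicate number. Against 943 rises and 675 falls, edgeR with total count scaling gave 676 and 1511, and DESeq2 gave 1651 and 1414. limma on log2(FPKM + 0.5), log2(FPKM + 0.1) and log2(FPKM + 1) gave 670, 701 and 655 rises and 1513, 1471 and 1560 falls. A filter at a mean FPKM of 5 tested 4285 genes and gave 431 and 382. A term for library sets gave 507 and 206. The sets were drawn from the muscle markers, not from the labels (saline 3 with the treated wild-type libraries, saline 6 with the knockout libraries), and this fit compares the treated livers with saline 3 alone, nearly as the fit without saline 6 does. Leaving out a wild-type library gave 326 to 628 rises and 105 to 333 falls. DESeq2 size factors in edgeR (908 and 699), no filter (882 and 632) and the 4 wild-type libraries alone (676 and 523) stayed within 1.5 times of the main counts. Of 92 named genes, those that changed sign under an alternative were 4 that had not passed the threshold. Aars gave a log2 fold change of -0.1601 with total count scaling, -0.1613, -0.1641 and -0.158 on the 3 limma scales, -0.0009984 without the filter, -0.004381 with the library set and -0.1353 to 0.2493 in the leave-out fits. With total count scaling and the limma scales in the order above, Tuba1c gave -0.01736, -0.005625, -0.005679 and -0.005558, Vegfa -0.06463, -0.05802, -0.05934 and -0.05644, and mt-Atp8 -0.153, -0.1422, -0.1423 and -0.1422. Under the library set and the 4 wild-type libraries alone, Cyp2e1 (adjusted p = 0.105 and 0.0673) and Hnf4a (0.0697 and 0.0555) lost their calls. DESeq2 called Egfr (adjusted p = 0.0215), Cyp1a2 (0.0495), Slc10a1 (0.00437), Krt19 (0.0099) and Ugt1a1 (0.0112), and edgeR did not. With 2 livers a group, a change of small size can go undetected. A gene near the limit of 0.5 FPKM can rest on few counts in 1 group. Slc7a6, for example, had 19 and 17 counts in the saline livers and 257 and 499 in the treated livers.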

Other observations

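Neighbouring genes of the mitochondrial genome differed in their values, a pattern picked out after these were seen. The coding regions of mt-Atp8 (bases 7766 to 7969 of the mitochondrial genome) and mt-Atp6 (7927 to 8607) overlap, and mt-Co3 begins where mt-Atp6 ends. The subunit gene mt-Atp6 stood at 1589 and 1533 FPKM in the saline livers and 7508 and 5900.4 in the treated livers. Over the same livers mt-Atp8 was at 4238 and 4109 against 3907 and 3659 FPKM (log2 fold change 0.08 ± 0.19, edgeR adjusted p = 0.799). For mt-Co3, a subunit of cytochrome oxidase, the values were 6302 and 5499 against 5619 and 4473 FPKM. The difference between mt-Atp6 and the genes on either side of it was not tested. How fragments over the overlap were assigned is not given in the sources used here.

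Ribosomal RNA of mitochondria was higher after the drug, in libraries that the protocols describe as selected for poly(A) RNA. The large rRNA, mt-Rnr2, was at 535 and 486 FPKM in saline and 967 and 1208 in treated livers (log2 fold change 1.31 ± 0.15, edgeR adjusted p = 0.00757). The small rRNA, mt-Rnr1, was at 495 and 419 against 675 and 818 FPKM (log2 fold change 0.93 ± 0.16, edgeR adjusted p = 0.0179, and 0.0618 without saline 3, 0.0894 without saline 6 and 0.067 without acetaminophen 4). The largest gain in FPKM of any called gene was that of AY036118 on chromosome 17, a gene named here only by an identifier, with 5324 and 6309 FPKM in saline and 12546 and 10696 in treated livers (log2 fold change 1.23 ± 0.27, edgeR adjusted p = 0.0382). It lost its call in each leave-out fit (0.166 without saline 3, 0.113 without saline 6, 0.147 without acetaminophen 1 and 0.0766 without acetaminophen 4, all edgeR adjusted p).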
